A study of Mus musculus with 28 samples.

Results

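The Egr genes, *Egr1*, *Egr2*, *Egr3* and *Egr4*, were chosen by name, and all 4 were read among 21938 protein-coding genes of the mouse annotation on the autosomes and the X and Y chromosomes. On the mm10 build, *Egr1* (ENSMUSG00000038418.7) lies on chromosome 18 from 34859823 to 34864984. *Egr2* (ENSMUSG00000037868.15) lies on chromosome 10 from 67535475 to 67542188. *Egr3* (ENSMUSG00000033730.4) lies on chromosome 14 from 70077203 to 70082614, and these 3 genes are on the forward strand. *Egr4* (ENSMUSG00000071341.4) lies on chromosome 6 from 85511121 to 85513589 on the reverse strand. The study purified medium spiny neuron (MSN) nuclei from the striatum by INTACT, in which a GFP-tagged nuclear membrane protein is captured on beads, and profiled histone marks by CUT&RUN (CnR), in which an antibody guides a nuclease to the mark. A2a nuclei came from Sun1-sfGFP;A2a-cre mice and D1 nuclei from Sun1-sfGFP;Drd1-cre mice, all C57BL/6J animals of both sexes at about 8 weeks of age with no treatment named. Both lines share the same Cre-dependent allele, R26-CAG-LSL-Sun1-sfGFP, so a tagged nucleus is one in which the A2a or Drd1 driver was active at any time in the life of the cell. H3K4me3 (Abcam antibody) was deposited as a list of peaks and H3K27me3 (Active Motif antibody) as a list of islands, 1 list for each cell type and mark, and each of the 4 lists pooled 2 replicates. No replicate values stood behind a peak or island, so no test between A2a and D1 could be made, and every difference between the lists is a description of 2 pooled libraries.

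The labels of the D1 H3K27me3 samples contradict each other: the title and the cell type give D1, and the source field gives A2a cells. They were taken as D1, and the marker genes bear on that choice. In the list taken as D1, the H3K27me3 islands at the promoters of the A2a markers *Adora2a* and *Penk* were 45.0 kb and 23.8 kb long, against no island and 3.40 kb in the A2a list, and those of the D1 markers *Drd1*, *Pdyn* and *Tac1* were 1.80 kb, 1 kb and 2.80 kb long against 16.8 kb, 39.6 kb and 61.0 kb. The promoters of 8 of 15 markers of oligodendrocytes, astrocytes and microglia held an H3K4me3 peak in the A2a list and 4 of 15 in the D1 list, at a median percentile of 19.5 and 4.66. Over all protein-coding promoters the shares with a peak were 58.2% and 55.7%. The A2a list held a peak at *Xist* and none at a Y-linked protein-coding promoter, and the D1 list held none at *Xist* and 4 at Y-linked promoters. These sex-linked peaks differed along with cell type in the H3K4me3 lists, so sex and cell type could not be told apart there. The part of other cells and of sex in the results below was not tested.

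Egr proteins are zinc finger transcription factors of the immediate early class: their genes are transcribed within minutes of synaptic activity or growth factor signalling, without new protein synthesis. Signalling through the MAP kinases reaches Srf with its ternary complex partners Elk1, Elk3 and Elk4, and cyclic AMP signalling reaches Creb1. Both kinds of factor bind near the starts of the *Egr* genes, and the Nab proteins act as co-regulators that restrain Egr activity. In the striatum, Egr genes are induced by dopamine receptor signalling, and *Egr1* is widely used as a marker of recently active MSNs. H3K4me3 marks the starts of active or poised genes, and H3K27me3 is laid down by Polycomb complexes over silenced genes.

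An H3K4me3 peak carries a fold enrichment over its local background and the -log10 of its q value, which grows with the number of reads and cannot be compared between lists. It was therefore ranked within its own list of 22551 A2a or 20080 D1 peaks, with 100 as the strongest percentile. The strongest promoter peaks of all protein-coding genes had a median percentile of 71.1 in A2a and 69.4 in D1, above the middle of each list. An H3K27me3 island carries a read count, given here with an exact 95% Poisson interval that covers counting error and nothing else. The promoter was read from 2 kb upstream to 1 kb downstream of the annotated 5′ end of the gene, and positions are in bases from that end, negative upstream.

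At this promoter window 3 of the 4 Egr genes, *Egr1*, *Egr3* and *Egr4*, held an H3K4me3 peak in A2a nuclei and the same 3 in D1 nuclei. Among all protein-coding promoters, 58.2% held a peak in the A2a list and 55.7% in the D1 list. *Egr2* held none at its annotated 5′ end, and its peak lay inside the gene. An H3K27me3 island reached the promoter of *Egr2* in the A2a list and of no Egr gene in the D1 list, where the shares of all promoters were 21.7% and 15.3%. Read at the annotated 5′ end, no Egr promoter held both marks in either list, against 9.54% of all promoters in A2a and 5.57% in D1. In A2a, the windows of later starts of *Egr2* did hold both. In the gene and 100 kb on either side, islands lay at 3 Egr genes in A2a and at 2 in D1, and 77.6% and 66.5% of all protein-coding genes had an island that close. The difference was the 1 island near *Egr4*, and with islands of at least 2000 bp the count was 2 in both lists. The shares of all genes with such longer islands are not given here.

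**Figure D1:**
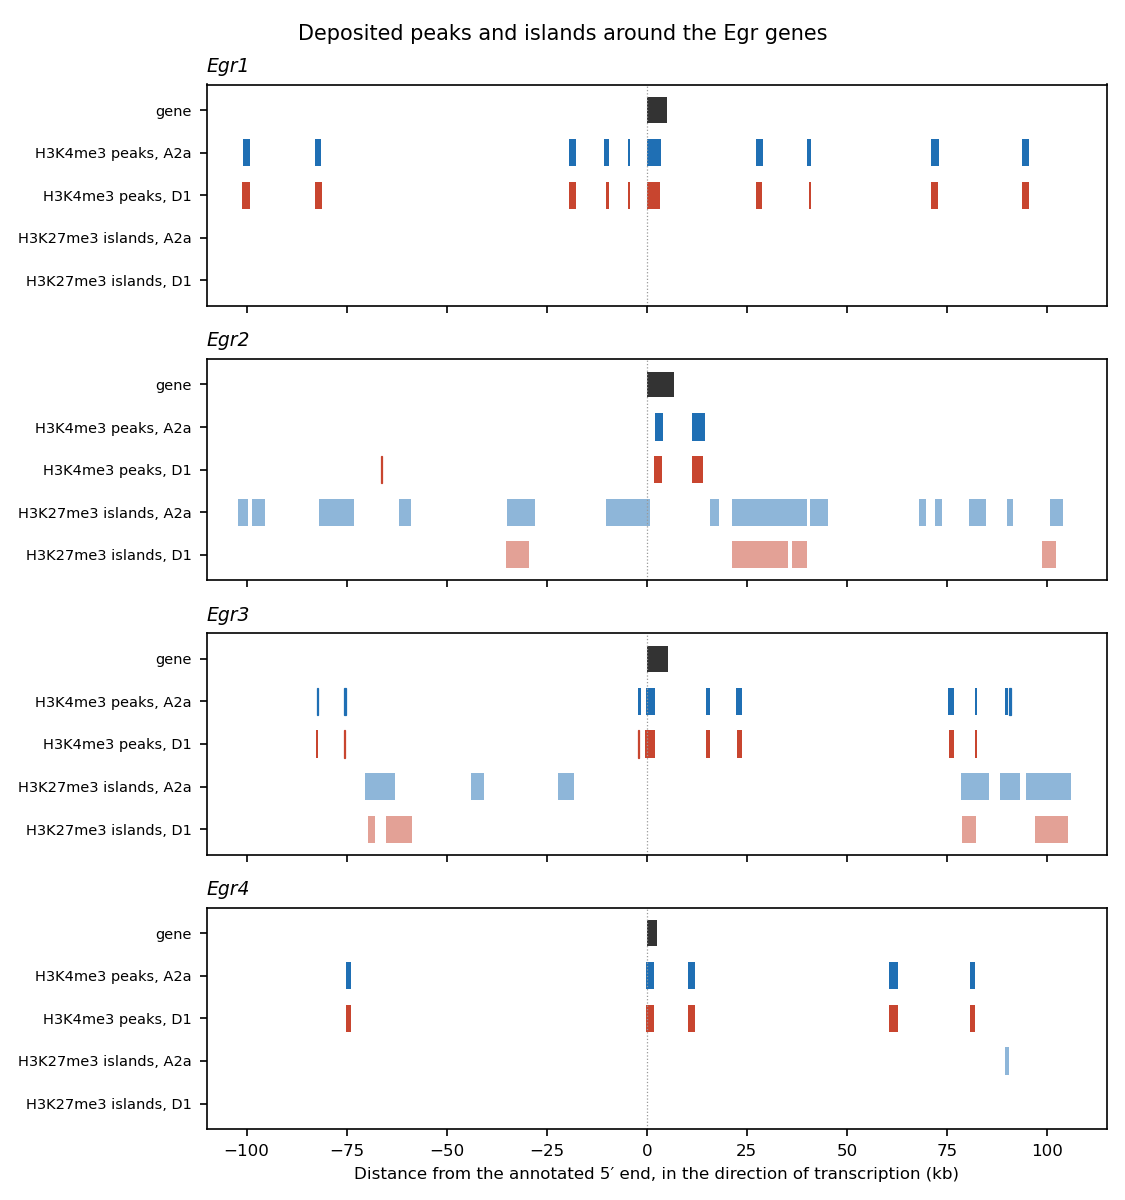
Every deposited H3K4me3 peak (solid bars) and H3K27me3 island (pale bars) in the gene and 100 kb on either side of each Egr gene, for the A2a (blue) and D1 (red) lists, by distance in kb from the annotated 5′ end. *Egr1* has 10 peaks and no island in either list, while *Egr2* has 14 islands in A2a and 4 in D1.

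*Egr1*, the family member best known from studies of learning and plasticity, had a broad H3K4me3 peak over the first part of the gene in both lists. In A2a it ran from 166 to 3482 (3317 bp), with a fold enrichment of 3.79, a -log10 q of 92.0 and a rank at percentile 59.2. In D1 it ran from 151 to 3257 (3107 bp), with a fold enrichment of 5.84, a -log10 q of 164 and a rank at percentile 97.0. The annotated 5′ end itself lay outside the peak, and the other annotated start, at 1384, lay inside it. The summits, at 1173 in A2a and 1209 in D1, lay at -211 and -175 from that start, in an exon outside the coding sequence.

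The peak of *Egr1* therefore stood 37.8 percentile points higher in the D1 list than in the A2a list. Among 12194 protein-coding genes with a promoter peak in both lists, 10.4% stood at least 10 points higher in D1 and 26.9% at least 10 points higher in A2a, and the median gap, D1 minus A2a, was -3.84 points. This lean towards A2a depended on the ranking, since the median gap was -0.383 points with equal numbers of peaks in the lists and 0.999 points by fold enrichment. A gap as large as that of *Egr1* was found at 5 of these genes, itself included. The others, named here after their values were seen, were *Pbx2*, *Ubb*, *Gm11168* and *Drd1*, the last being the receptor gene that defines D1 neurons, with a gap of 39.5 points. Ranked by fold enrichment instead, *Egr1* stood at 11.7 in A2a against 43.4 in D1, and a gap at least as large was found at 96 genes, or 0.787% of them. Among the 1802 genes within 5 points of the A2a rank of *Egr1*, the median D1 percentile was 56.6.

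*Egr3* and *Egr4* showed no such gap. *Egr3* stood 3.88 points higher in D1, a gap reached or passed by 22.1% of genes. *Egr4* stood at -2.18 points, where 56.3% of genes had a lower gap, further towards A2a, and 43.7% one as high or higher. The *Egr1* promoter window held 53.8% G and C, more than at 80.4% of protein-coding genes (median 49.0%). Its CpG ratio, observed over expected, was 0.445, above that of 56.3% of genes. The window ended before the summits of the *Egr1* peak, so these values cover only part of the sequence under the peak. In the fifth of genes by G and C content that holds *Egr1*, the median gap was -4.26 points and 10.6% stood at least 10 points higher in D1. The part of base composition in the gap was not tested.

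**Figure D2:**
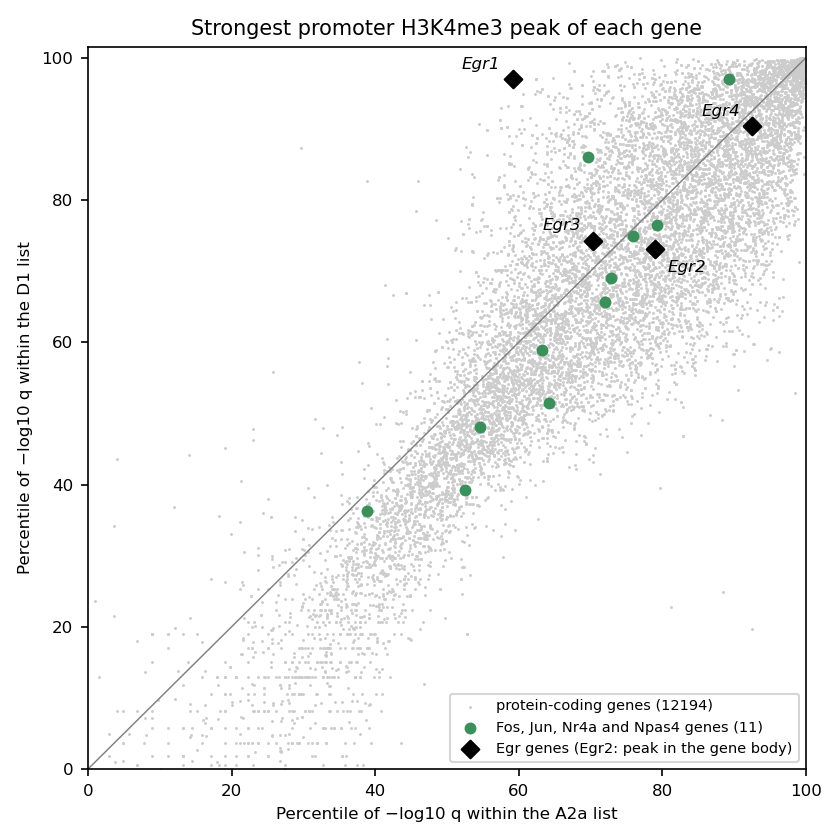
Percentile of the strongest promoter H3K4me3 peak by -log10 q within the A2a list (x axis) and the D1 list (y axis), with 12194 protein-coding genes in grey, 11 other immediate early genes in green and the Egr genes as black diamonds; the line marks equal ranks. *Egr1* lies at 59.2 and 97.0, far above the line, and *Egr3* and *Egr4* lie close to it.

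*Egr1* had 10 peaks around it in each list, and every one of them overlapped a peak of the other list. *Egr3* had as many in A2a and 8 in D1. A median of 4 peaks in A2a and 3 in D1 lay in the same window of a protein-coding gene. Of the 9 peaks outside the promoter, 5 lay at or next to the start of another protein-coding gene and 4 lay more than 2 kb from any. The nearest of the latter, from -4647 to -4100 in A2a and from -4697 to -4111 in D1, was weak in both, at percentiles 34.03 and 33.4. A second, about 28 kb downstream of the 5′ end, stood at percentiles 57.5 and 55.5. At 6 of the 10 positions the D1 rank was below the A2a rank, and the gap at the *Egr1* start was the highest of the 10. The peak at the start of *Reep2*, at -19.2 kb, had a gap of -15.2 points, while those of *Etf1* and *Hspa9* downstream had gaps of 4.01 and 0.632 points.

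No H3K27me3 island lay within 100 kb of *Egr1* in either list. Its promoter was 135 kb from the nearest island of the A2a list and 136 kb from that of the D1 list. A window without an island was shared by 22.4% of protein-coding genes in A2a and 33.5% in D1.

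*Egr2*, which sets up hindbrain segments and drives myelination by Schwann cells, was the member in which the choice of start decided the result. The annotation gives 6 transcript starts. The first pair, at 0 and 108, had no H3K4me3 peak within reach, while the peak covered the other 4, at 2394, 2395, 2455 and 3208. It ran from 1980 to 3935 in A2a (fold enrichment 6.15, -log10 q 145, percentile 79.0) and from 1902 to 3914 in D1 (5.88, 89.8, percentile 73.1). The summits lay at 3385 and 3376, in an exon outside the coding sequence. Read from any annotated start, all 4 Egr genes had a promoter peak in both lists. No share of all protein-coding genes is given here for this wider rule, under which a peak is easier to find.

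The start at 2394 is that of the main RefSeq transcript, and the sequence just upstream of it is shown because the H3K4me3 peak covered it in both lists. The RefSeq promoter table (GRCm38.p6, the same assembly as mm10) held entries for *Egr2*, with 5 starts, and for *Egr4*, with 1, and none for *Egr1* and *Egr3*. The motifs searched on both strands of the 250 bases upstream of each start were the CArG box bound by Srf, the half-site CGTCA and the full site TGACGTCA bound by Creb1, the Egr site GCGNGGGCG, and TATAAA. The full site of Creb1 contains the half-site. Capitals mark the matches. The stretch of 22 bases from -72 to -51 of the start at 2394 (chr10:67537797-67537818, forward strand) held a CArG box followed by a CRE half-site, and the upstream 250 bases of another RefSeq start shortly before it held a different CArG box (chr10:67537316-67537565, forward strand).
Egr2, main start: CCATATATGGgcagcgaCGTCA
Egr2, other start: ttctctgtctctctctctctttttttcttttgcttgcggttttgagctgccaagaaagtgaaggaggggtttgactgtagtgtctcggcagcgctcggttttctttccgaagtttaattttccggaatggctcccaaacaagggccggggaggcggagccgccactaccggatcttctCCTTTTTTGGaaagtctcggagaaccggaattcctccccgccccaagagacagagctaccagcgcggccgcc

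A CArG box was found in 1.47% of the 32851 promoters of the table and CGTCA in 17.8%. The 250 bases upstream of the main start held 1 more half-site, from -111 to -107. The A2a peak covered 111 of the 250 bases of the second sequence and the D1 peak 189. Neither list of islands reached either sequence.

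The A2a H3K27me3 list placed an island over the outer starts of *Egr2*. It ran from -10274 to 725 (11 kb) and held 797 reads (743 to 854), which ranked it at percentile 92.5 of 60191 islands. Its density was 72.5 reads per kb, 1.16 times the median island of the list. The island ended 1.25 kb before the A2a H3K4me3 peak began, so the marks lay side by side and did not overlap. A promoter window drawn around the start at 2394 held part of the peak and 332 bp of the island. In the D1 list the nearest upstream island ended 31.4 kb before the peak. The D1 list had fewer and lighter islands throughout, 45760 with a median of 104 reads against 60191 with a median of 211. The island at *Egr2* stayed among as many of the A2a islands with the most reads as the D1 list held. This followed from its percentile, and cutting the list does not lower the A2a depth. The cut therefore could not show whether the D1 list missed an island here.

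**Figure D3:**
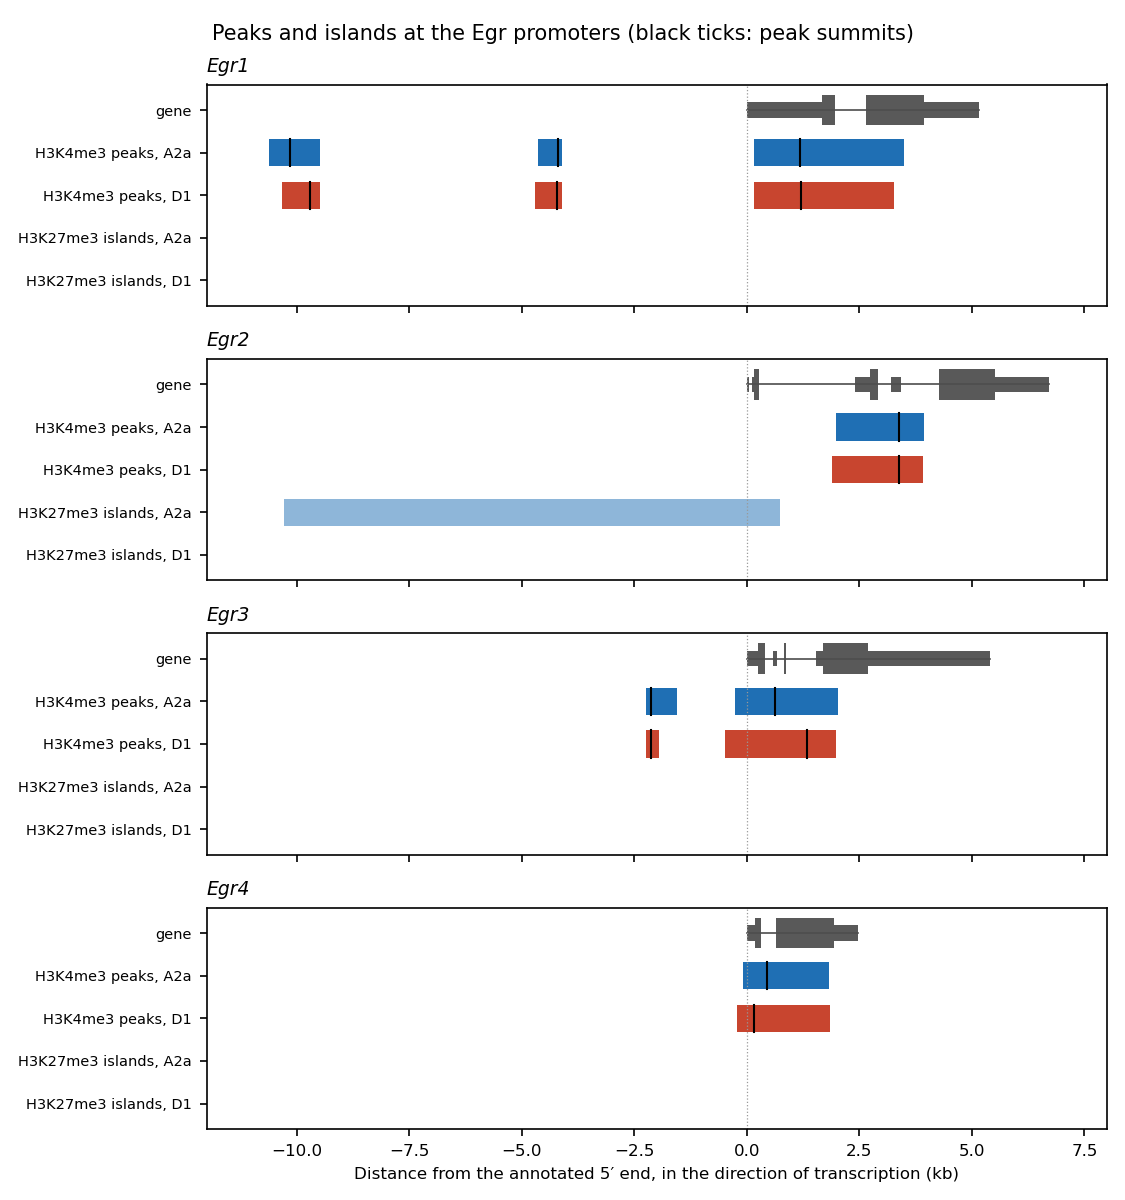
Peaks with their summits (black ticks) and islands from 12 kb upstream to 8 kb downstream of the annotated 5′ end, in kb, with the exons (thin grey boxes) and coding parts (thick grey boxes) of all transcripts merged. The *Egr2* peaks start near 1.98 kb in A2a and 1.90 kb in D1, and the A2a island over the outer starts of *Egr2* ends at 725 bp.

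Around *Egr2*, H3K27me3 islands covered 34.4% of the window in A2a (71.1 kb in 14 islands) and 13.1% in D1 (27 kb in 4 islands). In A2a 93.8% of protein-coding genes had less and in D1 87.0%, and the medians were 4.99% and 1.94%. The heaviest island began 21326 bp downstream of the 5′ end in each list. In A2a it spanned 18.6 kb and held 2191 reads (2100 to 2285), or 118 reads per kb and percentile 98.5. In D1 the same stretch was split into an island of 14.0 kb with 723 reads (671 to 778), or 51.6 reads per kb and percentile 97.7, and one of 3.60 kb with 100 reads (81.4 to 122). Relative to the median island of their lists these densities were 1.88 in A2a and 1.39 and 0.746 in D1. The island overlapped the lincRNA gene *4930563J15Rik* and no protein-coding gene. Of the D1 coverage, 91.1% was also covered in A2a, and of the A2a coverage 34.6% was also covered in D1.

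The remaining H3K4me3 peak shared by both lists near *Egr2* lay over the start of *Ado*, a thiol dioxygenase gene and the sole protein-coding neighbour, 13.5 kb downstream. Its percentile was 85.03 in A2a against 95.04 in D1, a gap of 10.01 points. One further peak, from -66529 to -66266, was listed in D1 alone, at percentile 0.637.

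*Egr3*, which is required for the formation of muscle spindles, had 2 H3K4me3 peaks in its promoter window in each list. The stronger spanned the 5′ end, from -256 to 2029 in A2a (fold enrichment 4.07, -log10 q 123, percentile 70.4) and from -478 to 1973 in D1 (4.21, 91.9, percentile 74.3). It covered all 4 annotated starts in both lists. Its summit lay at 628 in A2a, in an exon outside the coding sequence, and at 1331 in D1, in an intron. The weaker lay upstream, from -2242 to -1552 in A2a and from -2236 to -1959 in D1, at percentiles 35.9 and 33.7, with summits at -2120 and -2122. Together they covered 1706 of the promoter bases in A2a and 1521 in D1, more than at 88.7% and 84.9% of protein-coding genes.

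Of the *Egr3* window, 18.1% was covered by H3K27me3 islands in A2a (6 islands) and 9.64% in D1 (4 islands). These islands lay to the sides: from the promoter to the nearest island it was 16.2 kb in A2a against 56.6 kb in D1. In the *Egr3* promoter window the paper tested normalized H3K27me3 signal and reported less of it in D1 than in A2a. Called islands do not measure that signal, so the lack of an island here does not bear on that difference. The nearest A2a island, from -22202 to -18203, held 225 reads (197 to 256) in a stretch shared by *Pebp4* and the antisense gene *Gm33524*, and it had no partner in D1. The heaviest lay about 95 to 106 kb downstream over *Pdlim2* and *Sorbs3*, with 1080 reads (1017 to 1146) in A2a and 355 reads (319 to 394) in D1. This was the member with peaks that overlapped islands. An H3K4me3 peak at the start of *9930012K11Rik*, about 82 kb downstream, lay inside an island in A2a, at percentile 25.1, and overlapped the edge of one in D1, at percentile 17.1. A pair of A2a peaks in *Pdlim2*, at percentiles 25.1 and 11.1, lay in an A2a island and had no counterpart in D1.

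*Egr4*, whose loss is known for male infertility, had the promoter peak of the family with the highest -log10 q in A2a and the next highest after *Egr1* in D1, and by fold enrichment it stood first in both lists. It ran from -80 to 1827 in A2a (fold enrichment 7.41, -log10 q 192, percentile 92.5) and from -224 to 1843 in D1 (6.86, 127, percentile 90.3), and so covered most of a gene that is 2469 bp long. The summits lay at 448 in an intron and at 153 in an exon outside the coding sequence. The 250 bases upstream of its start (chr6:85513590-85513839, reverse strand) are shown because the D1 peak reached over 224 of them and the A2a peak over 80.
Egr4: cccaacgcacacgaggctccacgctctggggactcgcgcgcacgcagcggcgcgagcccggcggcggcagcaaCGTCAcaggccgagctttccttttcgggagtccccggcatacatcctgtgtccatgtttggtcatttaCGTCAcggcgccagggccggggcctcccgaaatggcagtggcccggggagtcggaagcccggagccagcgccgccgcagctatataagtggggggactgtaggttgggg

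These bases held 2 CRE half-sites, from -177 to -173 and from -109 to -105, and 3.902% of promoters in the table held 2 or more. They held none of the other motifs searched. The surroundings of *Egr4* held 1 H3K27me3 island in A2a, of 1 kb with 97 reads (78.7 to 118) over the start of *Noto*, and none in D1. All 4 peaks in the flanks lay at the starts of other protein-coding genes and were present in both lists.

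The strongest promoter peaks of the Egr genes, and for *Egr2* the peak inside the gene, differed in shape. The weaker upstream peak of *Egr3* was left out, at length percentiles 28.5 in A2a and 4.27 in D1. By length, these strongest peaks stood between percentile 82.0 (*Egr4*, A2a) and 99.0 (*Egr1*, A2a). The median strongest promoter peak of a protein-coding gene stood at 69.6 in A2a and 67.5 in D1. By fold enrichment they spread from percentile 11.7 (*Egr1*, A2a) to 59.3 (*Egr4*, A2a), where the median over genes was 62.8 in A2a and 64.7 in D1. *Egr3* joined a long peak to a low fold enrichment in both lists, at percentiles 15.0 and 20.3, and *Egr1* did so in A2a. Among 11 other immediate early genes, the median percentile of length was 95.7 in A2a and 82.4 in D1, and that of fold enrichment 37.1 and 38.9. *Jun* came close to *Egr1*, with a peak of 3315 bp in A2a at percentile 9.57 by fold enrichment and of 3142 bp in D1 at percentile 24.0. *Fosl1* lay at the other end, with 812 bp and 374 bp.

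**Figure D4:**
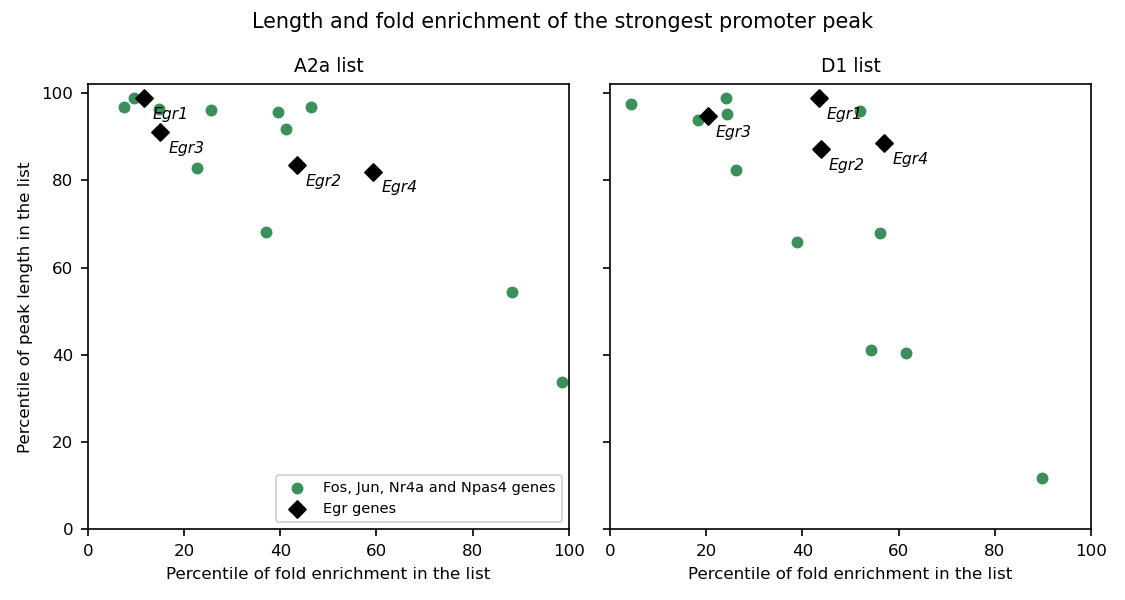
Percentile of length (y axis) against percentile of fold enrichment (x axis) for the strongest promoter H3K4me3 peak of each Egr gene (black diamonds; for *Egr2* the peak in the gene) and of 11 other immediate early genes (green), in the A2a and D1 lists. *Egr1* moves from 11.7 to 43.4 along the x axis between the lists while its length stays at percentile 99.0 and 98.8.

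The other immediate early transcription factors of the Fos, Jun, Nr4a and Npas4 families give the nearest comparison. All 11 had a promoter peak in both lists, against 58.2% of all promoters in A2a and 55.7% in D1. Their median percentile was 69.6 in A2a and 65.7 in D1, below the 71.1 and 69.4 of the strongest promoter peaks of all genes. *Jund* was the highest at 89.3 and 97.0, and *Nr4a1* the lowest at 38.8 and 36.3. Their gaps between the lists ran from -13.3 (*Nr4a2*) to 16.5 points (*Jun*), so none reached the 37.8 points of *Egr1*. Of the 11, *Jun* stood at least 10 points higher in D1, and *Nr4a2* and *Nr4a3* at least 10 points higher in A2a. Over all genes with a peak in both lists these shares were 10.4% and 26.9%. A promoter island was listed at *Nr4a2* in both lists and at *Nr4a3* in A2a, where it covered 153 bp of the window. The shares of all promoters with an island were 21.7% in A2a and 15.3% in D1. By cover of the 100 kb window, *Nr4a2* had the most of the 15 genes, 45.3% in A2a and 37.6% in D1, and *Fosl1* and *Fosl2* had none, as *Egr1*.

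**Figure D5:**
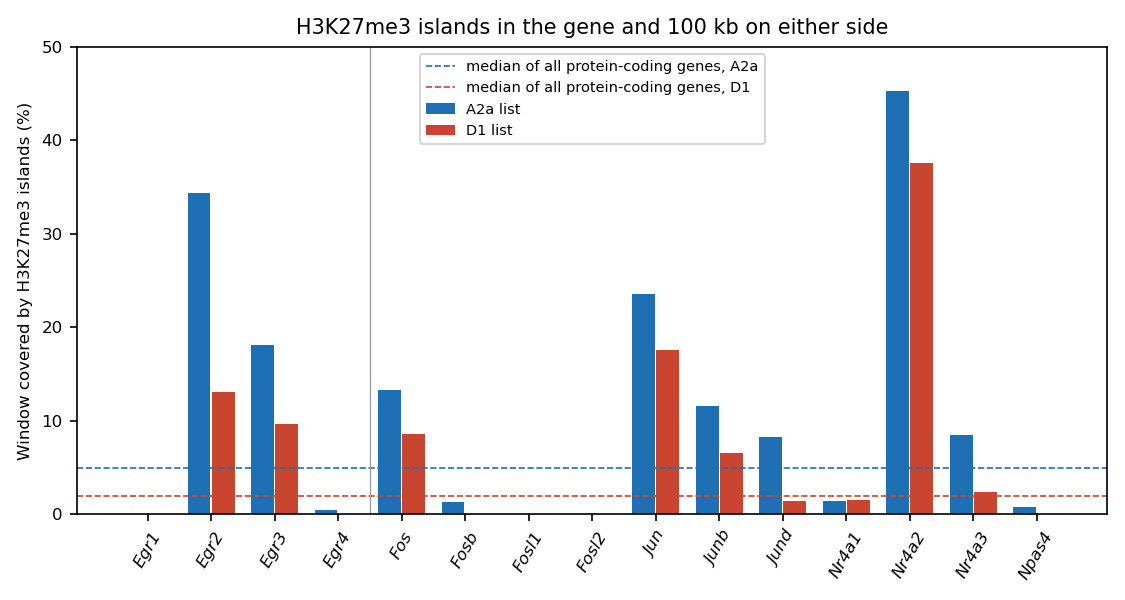
Percent of the gene and 100 kb on either side covered by H3K27me3 islands in the A2a (blue) and D1 (red) lists for the Egr genes (left of the line) and 11 other immediate early genes; dashed lines are the medians of all protein-coding genes, 4.99% and 1.94%. *Egr2* stands at 34.4% and 13.1%, *Egr3* at 18.1% and 9.64%, and *Egr1* at 0 in both.

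Among 16 genes that act upstream of the Egr genes or bind their products, 15 had a promoter H3K4me3 peak in each list. The exception was *Rps6ka5*, a kinase that phosphorylates histone H3 in activated MSNs. Of all protein-coding promoters, 58.2% held a peak in A2a and 55.7% in D1. The median percentile of the 15 was 66.6 in A2a and 79.2 in D1, against 71.1 and 69.4 for the strongest promoter peaks of all genes. *Nab1* was the highest in A2a at percentile 94.6, and *Map2k2*, a MAP kinase kinase gene, in D1 at 95.3. *Elk3* was the lowest in both at 33.1 and 15.9, and it was the one with a promoter island, which covered 3001 bases of the window in A2a and 2666 in D1. An island was found at 21.7% of all promoters in A2a and 15.3% in D1. *Srf*, *Mrtfa* (listed as *Mkl1*), *Creb1* and *Map2k2* stood at least 10 points higher in D1, by 16.0, 16.3, 26.0 and 16.1 points. *Mapk3* and *Elk3* had gaps of -26.0 and -17.2 points. Of all genes with a peak in both lists, 10.4% stood at least 10 points higher in D1 and 26.9% in A2a.

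Of 10 genes known as Egr targets in neurons or Schwann cells, 7 had a promoter peak in A2a and 8 in D1. The shares over all promoters were 58.2% and 55.7%. The median percentile of the targets was 65.9 in A2a and 59.1 in D1, below the 71.1 and 69.4 of the strongest promoter peaks of all genes. *Ngfr* was the lowest in A2a at 45.3. *Mag* was the lowest in D1 at 2.75 and had no peak in A2a. *Arc*, the activity-regulated synaptic gene, stood at 83.5 and 80.8. Promoter islands lay at *Ngfr* and *Pmp22* in both lists, 2 of the 10 targets. Of all protein-coding promoters, 21.7% held an island in A2a and 15.3% in D1. None of the 7 targets with a peak in both lists stood at least 10 points higher in D1, against 10.4% of all such genes. *Cdk5r1*, *Ngfr* and *Syn1* stood at least 10 points higher in A2a, against 26.9% of all such genes. *Wt1*, which encodes a zinc finger relative that binds a similar site, had no peak and an island over the whole window in both lists, with 68.8% and 43.0% of its surroundings covered.

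The genes nearest to each member in a profile of 6 ranks, made from the strongest promoter H3K4me3 value, the promoter length under H3K4me3 and the H3K27me3 cover in each list, were named by distance in percentile points. For *Egr1* they were *Tor2a* (9.81), *Acaa1a* (10.3) and *Smim26* (13.2), all without an island in the window and with D1 percentiles of 93.1, 87.7 and 93.6. For *Egr3* they were *Clstn2* (7.06), *Scyl2* (7.92) and *Cyp7b1* (8.05). For *Egr4* they were *Ermp1* (7.65), *Fnbp4* (7.84) and *Efr3b* (7.93). For *Egr2*, read at its annotated 5′ end and so without a peak, they were the globin genes *Hba-x*, *Hba-a1* and *Hbq1b*, all within 0.117 points and all in a window of islands that they share. Genes without a peak differ in this profile by H3K27me3 cover alone, so these distances cannot be set beside those of the other members. The percentiles and cover given here are part of the profile that chose the genes.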

How the data were processed

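CnR followed INTACT in each sample used. Of 28 samples, 8 stand behind the 4 lists used, and the other 20 were not analysed here. The authors aligned paired reads to mm10 with Bowtie2 2.1.0, kept a mapping quality of at least 20 (SAMtools 0.1.19), removed duplicates with Picard, and kept inserts of 150 to 500 bp. They called H3K4me3 peaks on merged replicates with MACS2 at a q of 0.01; the deposited columns used hold a fold enrichment and the -log10 of the q value. They called H3K27me3 islands with SICER (window 200 bp, gap 600 bp, FDR 0.01) against a control that is not given in the sources used here, and the deposited column holds read counts, not normalized. Merging hides the spread between replicates, and library totals are not in the lists, so depth could not be equalized.

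Peaks and islands were read against the GENCODE vM21 annotation (same assembly), with an overlap of at least 1 bp, using Python 3.11.15, pandas and SciPy. The interval steps were tested on simulated data. Members and lists were chosen with earlier results of these data known. Named by rule were the Egr genes, protein-coding neighbours, the 3 genes nearest in profile, and from each list the highest, the lowest and those with a promoter island. Outside this rule, *Arc*, genes at least 10 points apart between the lists and a few others were also named. The highest of the Egr targets is not reported here. *Mkl1* and *Mkl2* were matched through older symbols. Alternatives covered the window, the start, thresholds, the ranking measure and equal list sizes.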

Additional observations from a re-analysis of the deposited data

How the results depend on the processing

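The 9 recalculated rank differences between the lists kept their sign. The largest shifts of the percentiles themselves came from ranking by fold enrichment. It put the strongest promoter peaks of *Egr1*, *Egr3* and *Egr4* at 11.7, 15.0 and 59.3 in A2a and 43.4, 20.3 and 56.9 in D1. The *Egr1* difference was then 31.6 points. With peaks of a -log10 q of at least 5, *Egr1* stood at 57.5 and *Egr3* at 69.2 in A2a, *Egr3* at 72.4 and *Egr4* at 89.6 in D1, and the *Egr1* difference was 39.3 points. With equal numbers of A2a and D1 peaks, the 3 A2a percentiles were 54.2, 66.8 and 91.6 and the *Egr1* difference was 42.8 points. The differences of *Egr3* and *Egr4* moved most at this setting, to 7.52 and -1.26 points. Within 50 kb of the gene, 2 Egr genes had an A2a island instead of 3 and 1 had a D1 island instead of 2. The A2a count was also 2 with islands of at least 2000 bp, where the D1 count stayed at 2, and with equal numbers of islands. Read from any annotated start, 4 Egr promoters instead of 3 held a peak in each list. In A2a, the windows of the *Egr2* starts at 2394, 2395 and 2455 then held both a peak and an island. For the counts of Egr genes at these other settings, no share of all protein-coding genes is given here. With equal numbers of islands, a setting added after the data were seen, *Egr2* kept 10 of 14 A2a islands and a cover of 30.8%. No paired analysis was possible because each list pools its replicates. Without library totals, an island or peak missing from D1 could not be told apart from one below the limit of the D1 lists.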
